A study of Arabidopsis thaliana with 6 samples.

Results

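The genes described here are the nuclear genes for the proteins that collect light and carry out its photochemistry in chloroplasts of Arabidopsis thaliana. They were taken as a fixed set of 42 locus tags out of 33518 genes in the deposited expression table. The set holds 20 genes of the light-harvesting antenna (6 LHCA and 14 LHCB genes), 12 genes for subunits of photosystem I (PSA genes) and 10 genes for subunits of photosystem II (PSB genes). All 42 were found in the RefSeq annotation on the nuclear chromosomes, under the same or an equivalent name, and all 42 had a value above 0 and a p-value in the comparison of the overexpressing lines.

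RNA was sequenced from seedlings of the Col-0 ecotype, 5 days old and grown under constant light, in 3 genotypes with 2 libraries each. They were wild type, 35S:IBH1-myc (IBH1-Ox), and 35S:IBH1-myc/35S:PRE1-YFP (PRE1-Ox/IBH1-Ox, the double line). Both overexpressing lines thus carry the IBH1 transgene, and the double line carries PRE1 besides, each under the strong viral 35S promoter, which is active in most tissues. IBH1 is a helix-loop-helix protein that restrains cell elongation. PRE1 belongs to a family of short helix-loop-helix proteins without a DNA-binding region, and it binds IBH1. The labels do not say how many independent transformants each line stands for, or whether a group's libraries were grown separately. The p-values therefore reflect the scatter of these libraries alone, which may be technical.

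The antenna consists of chlorophyll a/b-binding proteins that absorb light and pass its energy to the reaction centres. LHCA proteins form a belt on photosystem I. LHCB1, LHCB2 and LHCB3 form the trimers of photosystem II, and LHCB4, LHCB5 and LHCB6 sit as monomers between trimers and core. The reaction centre proteins themselves are encoded in the plastid, and the nuclear PSA and PSB genes add the subunits that dock electron carriers, hold the antenna or shield the water-splitting site. In seedlings these nuclear genes are known to be induced by light, and they include some of the most abundant messages of green tissue.

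Stretches of 250 bases upstream of the gene start are shown for 8 genes, because the results below turn on them. They are given 5′ to 3′ on the coding strand, from the RefSeq TAIR10.1 genome. LHCB2.1 (chr2:1824481-1824730, minus strand), LHCB2.2 (chr2:1800473-1800722, minus strand) and LHCB2.3 (chr3:10255656-10255905, plus strand) had the lowest fold changes of the 42 genes. LHCA4 (chr3:17495034-17495283, minus strand) and LHCB3 (chr5:22037915-22038164, plus strand) also fell steeply, and LHCB4.3 (chr2:16745378-16745627, plus strand) was not called. PSBQ1 (chr4:11334102-11334351, plus strand) and PSBQ2 (chr4:2673244-2673493, minus strand) encode the same subunit and moved in opposite directions. Capitals mark matches, on either strand, to CACGTG (G-box), GATAAG (I-box), AAAATATCT (evening element), AAAAATCT or AACAATCT (CCA1-type) and CCAATC (the type of site linked to GLK factors).
LHCB2.1: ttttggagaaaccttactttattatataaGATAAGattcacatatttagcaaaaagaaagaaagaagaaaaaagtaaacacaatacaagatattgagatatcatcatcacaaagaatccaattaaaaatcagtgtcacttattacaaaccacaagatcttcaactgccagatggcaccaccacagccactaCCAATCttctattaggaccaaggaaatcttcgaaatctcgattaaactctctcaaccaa
LHCB2.2: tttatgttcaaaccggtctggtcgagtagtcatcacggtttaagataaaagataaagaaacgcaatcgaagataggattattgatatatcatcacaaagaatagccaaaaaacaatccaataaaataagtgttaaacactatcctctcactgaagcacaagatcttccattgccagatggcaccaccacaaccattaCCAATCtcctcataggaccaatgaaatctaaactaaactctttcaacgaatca
LHCB2.3: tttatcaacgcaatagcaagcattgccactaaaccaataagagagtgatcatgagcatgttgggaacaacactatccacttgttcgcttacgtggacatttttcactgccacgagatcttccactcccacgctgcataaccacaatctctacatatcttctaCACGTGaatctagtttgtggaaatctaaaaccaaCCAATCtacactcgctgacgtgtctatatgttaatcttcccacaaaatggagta
LHCA4: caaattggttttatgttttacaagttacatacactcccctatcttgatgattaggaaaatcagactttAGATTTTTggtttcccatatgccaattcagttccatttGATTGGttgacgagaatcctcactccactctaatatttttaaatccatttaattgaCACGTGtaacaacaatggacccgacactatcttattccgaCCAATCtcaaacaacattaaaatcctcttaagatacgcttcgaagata
LHCB3: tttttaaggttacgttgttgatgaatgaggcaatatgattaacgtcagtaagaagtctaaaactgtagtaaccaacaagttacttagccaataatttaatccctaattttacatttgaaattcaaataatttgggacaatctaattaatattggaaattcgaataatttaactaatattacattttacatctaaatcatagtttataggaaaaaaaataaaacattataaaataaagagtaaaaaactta
LHCB4.3: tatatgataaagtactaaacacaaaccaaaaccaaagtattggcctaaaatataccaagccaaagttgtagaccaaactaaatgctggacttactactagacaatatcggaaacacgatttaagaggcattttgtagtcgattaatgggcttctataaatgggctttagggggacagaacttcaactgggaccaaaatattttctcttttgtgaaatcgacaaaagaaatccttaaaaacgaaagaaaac
PSBQ1: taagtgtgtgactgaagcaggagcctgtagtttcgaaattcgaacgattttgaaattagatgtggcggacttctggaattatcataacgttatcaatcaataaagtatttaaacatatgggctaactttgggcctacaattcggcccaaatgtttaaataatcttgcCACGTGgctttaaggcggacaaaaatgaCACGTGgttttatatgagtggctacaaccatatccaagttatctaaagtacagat
PSBQ2: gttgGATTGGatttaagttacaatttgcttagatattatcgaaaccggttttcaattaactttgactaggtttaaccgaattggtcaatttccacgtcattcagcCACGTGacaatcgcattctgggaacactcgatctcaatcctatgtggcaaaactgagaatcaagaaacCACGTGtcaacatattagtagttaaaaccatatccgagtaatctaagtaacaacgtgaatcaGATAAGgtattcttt

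Each of the 3 LHCB2 stretches holds CCAATC, while LHCB3 and LHCB4.3 hold none of the letters searched. Over the window from 250 bases before to 50 bases after the gene start, CCAATC was present in 11 of 20 antenna genes (55%), in 1 of 12 PSI genes (8.33%), in 3 of 10 PSII genes (30%) and in 12.3% of 27443 protein-coding genes. The I-box GATAAG was most frequent in front of PSI genes, 8 of 12 (66.7%), against 30% of antenna genes, 30% of PSII genes and 14.6% of all genes. The G-box CACGTG was most frequent in front of PSII genes, 6 of 10 (60%), against 20%, 33.3% and 7.68% for antenna, PSI and all genes. CCA1-type letters were present in 20%, 25% and 0% of antenna, PSI and PSII genes and in 9.93% of all genes, and the evening element in 1 antenna gene, LHCA5, and in 2.82% of all genes. These are matches of letters only, and no binding was measured.

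The comparison of the double line with IBH1-Ox asks which transcripts differ when PRE1 is added to IBH1 overexpression. The deposited tables give group means of normalized counts, that is, reads per gene divided by a size factor per library. Reads of the single libraries were recovered by splitting each mean into a pair of whole numbers, and libraries are named below by their size factor, with the value of the larger one given first. Over genes, 15459329 and 13599052 reads were recovered for IBH1-Ox, while for the double line there were 9771640 and 8206439. In the recovered libraries IBH1 stood at 10551 and 11629 normalized counts in IBH1-Ox and at 16541 and 16523 in the double line, and PRE1 at 125 and 135 against 8465 and 8344. PRE1 was thus high in both libraries labelled with its transgene and low in the others, and IBH1 was higher in the double line too, with a log2 difference of 0.58. The counts cannot tell the IBH1 transgene from the endogenous gene.

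Of the 42 genes, 34 fell and 2 rose in the double line in the authors' deposited table, at an adjusted p below 0.05. Over all 24451 tested genes, 9.78% fell and 12.7% rose. The classes differed in how far they moved. Among antenna genes 17 of 20 fell and none rose, with a median log2 fold change of -1.35, which is a 2.55-fold lower level. At an unadjusted p below 0.05, and in the limma-voom fit described below, 0 antenna genes rose as well. Of the PSI subunit genes 12 of 12 fell, with a median of -0.45, and of the PSII subunit genes 5 fell, 2 rose and 3 were not called, with a median of -0.14. The median over all genes with a p-value was -0.0082. Whole seedlings were sequenced, so fewer cells of a type and less RNA per cell cannot be told apart.

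**Figure D1:**
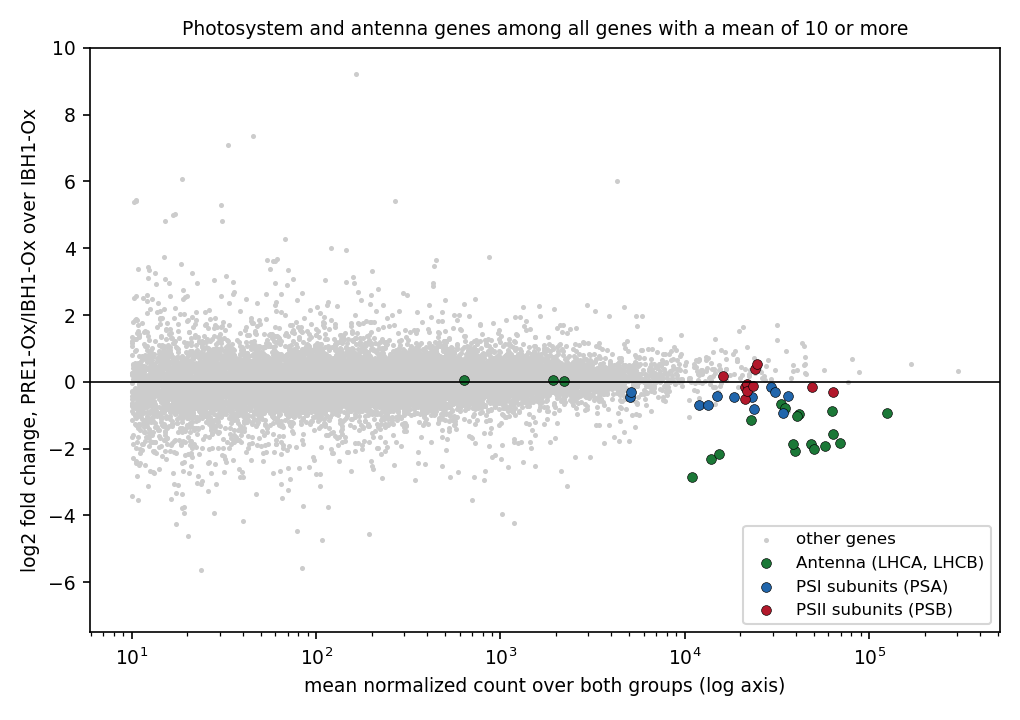
Log2 fold change of the double line over IBH1-Ox (vertical axis) against the mean normalized count over both groups (horizontal log axis) for genes with a mean of 10 or more, with antenna genes in green, PSI subunit genes in blue, PSII subunit genes in red and other genes in grey (genes at 0 in a group are not drawn). Antenna genes reach down to -2.85 at the high end of the abundance scale.

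Abundant transcripts as a whole did not go the same way. Of the 158 genes with a mean of 10000 or more, 37 belong to the photosystem and antenna set. Among the 121 others, 67.8% rose, 11.6% fell and the median log2 fold change was 0.33.

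Log2 fold changes with a standard error (SE) below come from a limma-voom fit to the recovered reads, with n = 2 libraries a group and p-values adjusted over 20019 genes, of which 17.4% fell and 20.8% rose in that fit. The libraries of both groups did not overlap for 38 of the 41 genes with a value in every library. The same held for 68.9% of the 20019 genes, so this count over both directions separates the set little from other genes. Among the 38 were 16 antenna and 12 PSI genes, all lower in the double line, and 10 PSII genes, which moved both ways. Of the 20019 genes, 34.6% did not overlap with the double line lower. For 13 genes of the set, the IBH1-Ox reads could be split only under an assumed limit of 2-fold between libraries. Where such a gene fell far enough, that limit alone keeps the groups apart. The counts of 16 and 12 are therefore in part set by it. LHCB1.3 has no values for single IBH1-Ox libraries, because 20 pairs of whole numbers gave its mean, and it was not part of that fit.

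**Figure D2:**
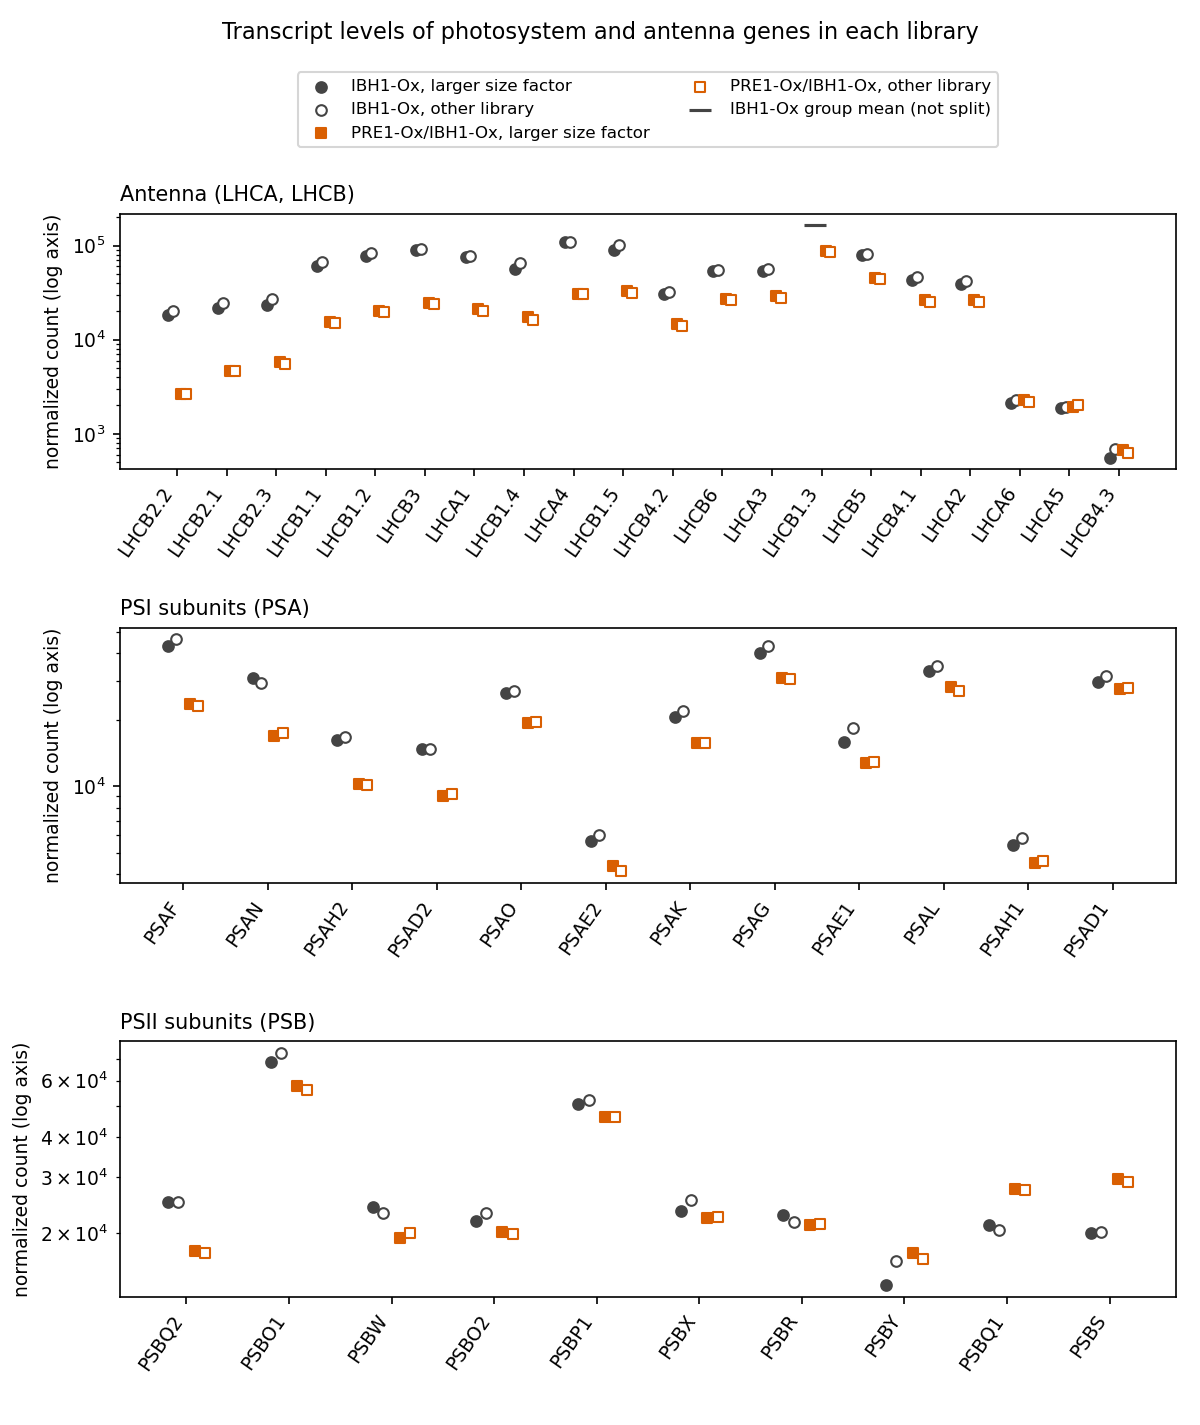
Normalized count per library (log axis) of each antenna, PSI and PSII gene, ordered by fold change, with circles for IBH1-Ox, squares for the double line and a dash for the IBH1-Ox group mean of LHCB1.3. Antenna squares lie well below the circles except for LHCA5, LHCA6 and LHCB4.3, while those of PSBQ1 and PSBS lie above them.

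The LHCB2 genes, which encode the trimer protein that is phosphorylated when antenna moves between photosystems, fell most. LHCB2.2 (AT2G05070) stood at 18307 and 19937 normalized counts in IBH1-Ox and at 2677 and 2627 in the double line, a log2 fold change of -2.85 ± 0.051 (SE, limma-voom adjusted p = 6.85e-21). LHCB2.1 (AT2G05100) stood at 21643 and 24277 against 4612 and 4612, a change of -2.31 ± 0.051. LHCB2.3 (AT3G27690) stood at 23221 and 27133 against 5764 and 5565, a change of -2.14 ± 0.058. In each of the 3 genes the groups were far apart and the libraries of a group close together. The ratio of LHCB2.1 to LHCB2.2 moved from 1.18 and 1.22 in IBH1-Ox to 1.72 and 1.76 in the double line, so the copies did not fall by equal factors. An exact 2-sided permutation test on 2 against 2 libraries gives 0.333 at the smallest, and this ratio gave that value. The share of summed gene signal in the LHCB2 genes went from 0.435% to 0.081%.

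LHCB2.1 and LHCB2.2 are 92.1% identical over their coding sequences, and 22.7% and 28.2% of the 50-base windows of their transcripts recur exactly in the other gene. LHCB2.3 shares no such window, but 38.6% of its windows overlap the annotated neighbour AT3G27700. Of the summed signal of all entries, 12.8% (IBH1-Ox) and 10.3% (double line) came from reads that aligned at several places, and the part of these in the fall of near-identical genes was not tested.

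LHCB1 is the main trimer protein and has 5 gene copies, 3 of them in a cluster on chromosome 1 and 2 on chromosome 2. All 5 fell, with a median log2 fold change of -1.86. LHCB1.1 (AT1G29920) stood at 60705 and 66585 normalized counts in IBH1-Ox and at 15275 and 14964 in the double line, a change of -2.07 ± 0.042. LHCB1.2 (AT1G29910) stood at 77983 and 82525 against 20316 and 19715, a change of -2.002 ± 0.036. These neighbours on chromosome 1 moved almost alike. The remaining gene of the cluster, LHCB1.3 (AT1G29930), had a mean of 163890.0 in IBH1-Ox and 88056 and 84713 in the double line, a fold of 1.90 with an adjusted p of 1.68e-30 in the authors' deposited table. Its fall was the smallest among the copies, and its share of the summed LHCB1 signal went from 35.4% to 50.7%. On chromosome 2, LHCB1.4 (AT2G34430) stood at 56477 and 64915 against 17284 and 16224 (-1.85 ± 0.051), and LHCB1.5 (AT2G34420) at 89355 and 100585 against 33115 and 31009.7 (-1.56 ± 0.045). The chromosome 1 copies are 95.6% to 96.4% identical over their coding sequences, and 10.6% to 20.5% of the 50-base windows of an LHCB1 transcript recur in another copy, so the split of reads among copies is uncertain. With LHCB1.1, LHCB1.2 and LHCB1.3 summed into 1 gene the antenna median was -1.24.

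LHCB3 (AT5G54270), a trimer protein that occurs together with LHCB1 and LHCB2, fell with them. It stood at 90134 and 92934 normalized counts in IBH1-Ox and at 24420.2 and 23926 in the double line, a change of -1.92 ± 0.033. No 50-base window of its transcript recurs in a gene elsewhere, but 11.0% of its windows overlap the annotated neighbour AT5G54280. The level of LHCB3 per kilobase of exon went from 73699 to 19463.

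Genes for the monomeric antenna proteins of photosystem II fell less. LHCB4.2 (AT3G08940) and LHCB4.1 (AT5G01530) encode the protein CP29 and changed by -1.13 ± 0.038 and -0.79 ± 0.040. LHCB6 (AT1G15820), which encodes CP24, stood at 53977 and 55163 normalized counts against 27299 and 26516, a change of -1.02 ± 0.032. LHCB5 (AT4G10340), which encodes CP26, stood at 79110.5 and 82147 against 44857 and 43782, a change of -0.86 ± 0.031. These 4 changes, from -1.13 to -0.79, lay above those of the LHCB1, LHCB2 and LHCB3 genes with the exception of LHCB1.3. The grouping into trimer and monomeric proteins is textbook knowledge, but it was applied with the values in view and was not tested.

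LHCB4.3 (AT2G40100), a CP29 gene with a divergent product, did not follow the others. It stood at 559 and 681 normalized counts in IBH1-Ox and at 666 and 629 in the double line, so the groups overlapped. The log2 fold change was 0.08 ± 0.089, and the adjusted p in the authors' deposited table was 0.919. Per kilobase of exon its level in IBH1-Ox was 428, against 31909 for LHCB4.1 and 22865 for LHCB4.2. Its coding sequence is 70.2% identical to that of LHCB4.1 and 70.8% to that of LHCB4.2, which are 81.9% identical to each other, and none of the 3 shares a 50-base window. The sign of its change rests on 1 library, since it was -0.07 without the IBH1-Ox library of larger size factor and 0.22 (adjusted p = 0.0397, limma-voom) without the other.

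The belt proteins of photosystem I split by their partners. LHCA1 and LHCA4 pair with each other in the belt, and their genes fell most. LHCA1 (AT3G54890) stood at 75198 and 77393 normalized counts in IBH1-Ox and at 21262 and 20344 in the double line, a change of -1.87 ± 0.034. LHCA4 (AT3G47470) stood at 108500.0 and 109185 against 30726 and 30258, a change of -1.84 ± 0.031. The other pair fell less. LHCA3 (AT1G61520) stood at 53519 and 56372 against 28748 and 27746 (-0.96 ± 0.035), and LHCA2 (AT3G61470) at 39347 and 42485 against 26565 and 25139 (-0.66 ± 0.039). This pairing, too, was compared with the values in view, and no test was made of it.

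LHCA5 and LHCA6 attach photosystem I to the NDH complex, which serves cyclic electron flow, and neither was called. LHCA5 (AT1G45474) stood at 1876 and 1930.5 normalized counts in IBH1-Ox and at 1929 and 1998 in the double line, a change of 0.04 ± 0.055 (limma-voom adjusted p = 0.554). LHCA6 (AT1G19150) stood at 2110.4 and 2272 against 2296 and 2163, a change of 0.03 ± 0.057 (adjusted p = 0.717). Both overlapped between the groups. With LHCB4.3 they are the scarce antenna genes, and the 3 together held 0.421% of the antenna signal in IBH1-Ox.

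**Figure D3:**
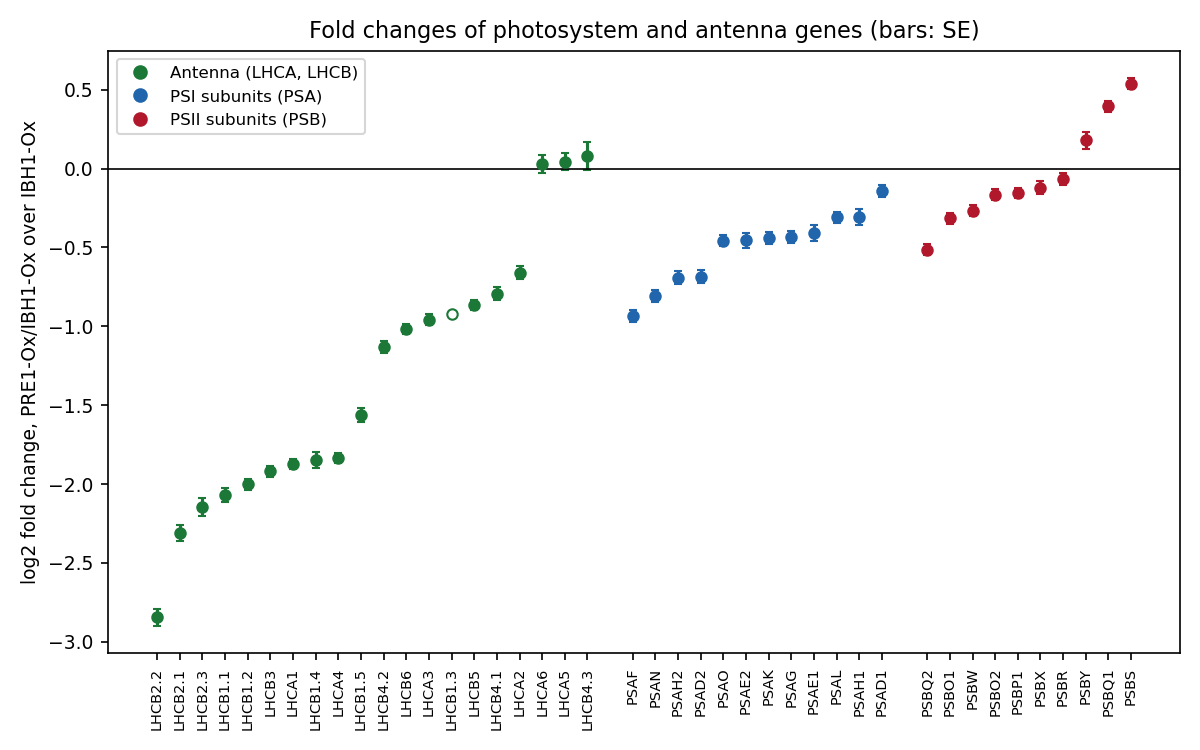
Log2 fold change of each gene (vertical axis) with its SE from limma-voom over 2 libraries a group, ordered within antenna (green), PSI (blue) and PSII (red), with an open circle for LHCB1.3, whose value is from the deposited means and has no SE. Antenna genes span -2.85 to 0.08, PSI genes -0.94 to -0.14 and PSII genes -0.51 to 0.54.

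The PSI subunit genes fell together, but by less than most antenna genes. PSAF (AT1G31330), which encodes the subunit that docks plastocyanin, fell most, from 43009.7 and 46370.5 normalized counts in IBH1-Ox to 23544 and 23094 in the double line (-0.94 ± 0.038, limma-voom adjusted p = 9.61e-15). PSAN (AT5G64040), a subunit on the lumen side near PSAF, went from 31059 and 29246 to 16949.9 and 17488 (-0.81 ± 0.038). Both were lower in each library of the double line than in either library of IBH1-Ox. For PSAF this follows from the limit of 2-fold between libraries, which its IBH1-Ox split needed. PSAG (AT1G55670) and PSAK (AT1G30380), which lie beside the LHCA belt, changed by -0.43 ± 0.037 and -0.44 ± 0.038. For PSAG, 58.8% of its 50-base windows overlap the annotation of its neighbour AT1G55673, so reads could be assigned to either or to neither.

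PSAH, PSAL and PSAO form the side of photosystem I where trimers from photosystem II can dock. PSAH2 (AT1G52230) went from 16229 and 16696 normalized counts to 10196 and 10186 (-0.69 ± 0.039), and its copy PSAH1 (AT3G16140) from 5415 and 5833 to 4479 and 4607 (-0.31 ± 0.048). PSAO (AT1G08380) went from 26546 and 26889 to 19380.5 and 19505 (-0.46 ± 0.034). PSAL (AT4G12800) went from 33184 and 34963 to 28033 and 26912 (-0.31 ± 0.036). All 4 were lower in both libraries of the double line, and the ratio of PSAH2 to PSAH1 went from 2.997 and 2.86 to 2.28 and 2.21. For PSAH1, 49.2% of its windows overlap the annotation of AT3G16130, and for PSAH2 19.1% overlap that of AT1G52240.

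PSAD and PSAE bind ferredoxin on the stroma side, and each has a pair of genes. PSAD2 (AT1G03130) went from 14692 and 14720.1 normalized counts to 9072 and 9227 (-0.68 ± 0.039). PSAD1 (AT4G02770) went from 29786 and 31570.0 to 27534 and 28005, a change of -0.14 ± 0.036, the smallest of the class. In the authors' deposited table PSAD1 had an adjusted p of 0.0383, the only PSI gene above 0.01. It was not called when either library of the double line was left out of the limma-voom fit, though its change stayed at -0.13 and -0.16. The SE was then 0.079 and 0.077, with the spread taken from the IBH1-Ox libraries alone. The ratio of PSAD2 to PSAD1 was 0.493 and 0.466 in IBH1-Ox and 0.329 and 0.329 in the double line. PSAE1 (AT4G28750) went from 15840.3 and 18431 to 12819 and 12881 (-0.41 ± 0.052), and PSAE2 (AT2G20260) from 5632 and 5996 to 4342 and 4122 (-0.46 ± 0.048). The PSAE copies thus moved alike, and their ratio overlapped between the groups (exact permutation p = 0.667). The coding sequences of the pairs are 88.0% (PSAD), 87.0% (PSAH) and 79.0% (PSAE) identical, and no 50-base window of these genes recurs in a gene elsewhere. For PSAE1, however, 29.1% of its windows overlap the annotation of AT4G28755, and for PSAE2 2.51% overlap that of AT2G20270.

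PSII subunit genes moved both ways and by small amounts. The proteins PSBO, PSBP and PSBQ cover the water-splitting manganese cluster. PSBO1 (AT5G66570), the main copy of the largest of them, went from 68597 and 73214 normalized counts in IBH1-Ox to 57614 and 56201 in the double line (-0.32 ± 0.033), and PSBO2 (AT3G50820) from 21931 and 23153 to 20193 and 19974 (-0.16 ± 0.037). PSBP1 (AT1G06680) went from 50566 and 52288 to 46154 and 46186 (-0.15 ± 0.031). PSBW (AT2G30570), a small membrane subunit, went from 24198 and 23144 to 19409 and 19989.6 (-0.27 ± 0.037). These falls were past the threshold in the authors' deposited table. The limma-voom calls of PSBO2 and PSBP1 were lost when either library of the double line was left out, in fits whose spread comes from the IBH1-Ox libraries alone.

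The genes for PSBQ went in opposite directions. PSBQ2 (AT4G05180) fell from 25030.3 and 24987 normalized counts to 17614 and 17411 (-0.51 ± 0.035, limma-voom adjusted p = 8.4e-11). PSBQ1 (AT4G21280) rose from 21276 and 20483 to 27550.1 and 27319 (0.39 ± 0.035, adjusted p = 6.67e-09). The ratio of PSBQ2 to PSBQ1 counts was 1.18 and 1.22 in the IBH1-Ox libraries and 0.639 and 0.637 in those of the double line. Per kilobase of exon the group means of PSBQ2 and PSBQ1 were 19676 and 20942 in IBH1-Ox and 13779 and 27517 in the double line. These use exon lengths over all transcripts, 1271 bases for PSBQ2 and 997 for PSBQ1. With the longest transcripts, 1155 and 994 bases, PSBQ2 would be the higher copy in IBH1-Ox, so the order there depends on the length used. In the double line PSBQ1 was the higher copy by either length. The exact permutation test of the ratio of counts gave its smallest possible p of 0.333. The coding sequences are 78.9% identical with no shared 50-base window, and the upstream stretches shown above hold 2 copies of CACGTG in both genes.

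PSBS (AT1G44575), which senses lumen acidity and switches on energy-dependent quenching of excess light, rose most of all 42 genes. It stood at 19998 and 20227 normalized counts in IBH1-Ox and at 29588 and 28841 in the double line (0.54 ± 0.034, limma-voom adjusted p = 2.69e-11). The other 3 genes were not called in the authors' deposited table. PSBR (AT1G79040), needed for stable binding of PSBP, stood at 22846 and 21698 against 21218 and 21346 (-0.07 ± 0.037). PSBX (AT2G06520), a small membrane subunit, stood at 23408 and 25437 against 22327 and 22521 (-0.12 ± 0.039), and PSBY (AT1G67740), another, at 13779.7 and 16425 against 17365 and 16590.4 (0.18 ± 0.055). For PSBX and PSBY the adjusted p was 0.0992 and 0.131 in the authors' deposited table and 0.0187 and 0.0138 in the limma-voom fit, so the call depends on the test.

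Set against each other, the classes took unequal parts of the reads. The antenna share of the summed gene signal was 7.24% for IBH1-Ox against 2.69% for the double line, that of PSI genes 1.87% against 1.27%, and that of PSII genes 1.92% against 1.74%. By library, and over the 19 antenna genes with recovered reads, the antenna share was 6.25% and 6.58% in IBH1-Ox and 2.27% and 2.19% in the double line. The total behind these library shares holds only genes recovered in both groups, 9715850 and 8161331 reads in the double line. It leaves out the abundant genes LHCB1.3, RBCS1A and RCA, so library shares and group shares have unlike totals. The Wilson 95% interval of the first of these shares was 6.24% to 6.26%, and that of the last 2.18% to 2.202%. These intervals cover counting error only. The libraries of a group differed by more than this, and the groups by far more.

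LHCB1.3, the most read antenna gene and the LHCB1 copy that fell least, has no recovered IBH1-Ox reads and is left out of the ratios by library. Over the other 19 antenna genes, the ratio of antenna reads to PSI reads was 3.28 and 3.33 in IBH1-Ox and 1.72 and 1.66 in the double line, a log2 difference of -0.97. The ratio of antenna reads to PSII reads was 3.17 and 3.27 against 1.25 and 1.22, a difference of -1.39. The ratio of PSI to PSII reads was 0.967 and 0.982 against 0.727 and 0.731, a difference of -0.42. The groups did not overlap in any of the 3 ratios, and each exact 2-sided permutation test gave p = 0.333, the smallest that 2 against 2 libraries allow. With LHCB1.3 included, the ratio of summed group means of antenna to PSI genes was 3.87 for IBH1-Ox against 2.12 for the double line, a log2 difference of -0.87, and that of antenna to PSII genes 3.78 and 1.54, a difference of -1.29. The ratios by library are the same under any scaling of the libraries. Those of summed group means depend on the size factors, which weight the libraries of a group.

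**Figure D4:**
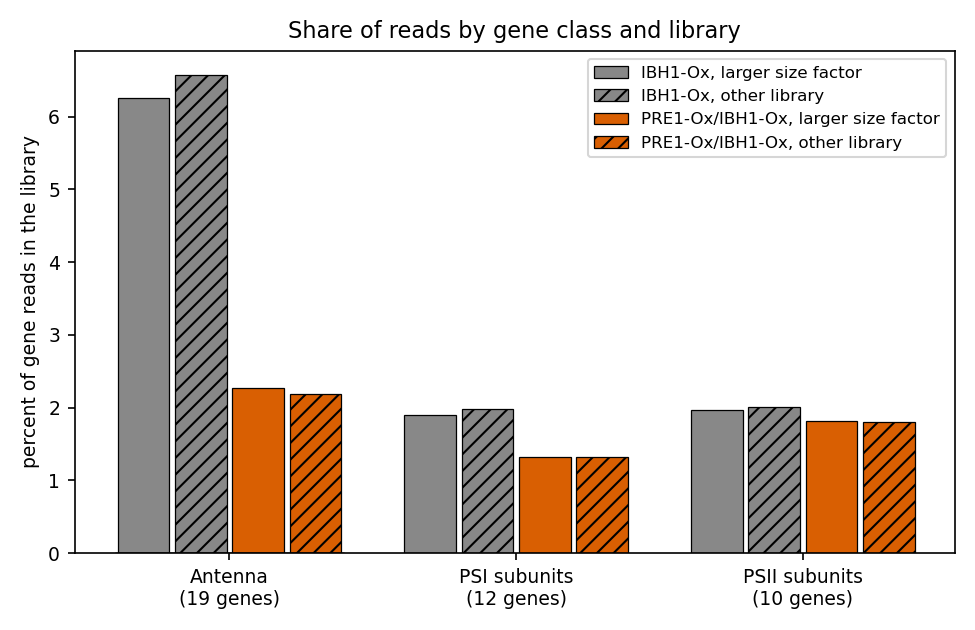
Percent of gene reads in each library (bars from 0) that fell on the 19 antenna genes with recovered reads, the 12 PSI genes and the 10 PSII genes, with grey bars for IBH1-Ox and orange bars for the double line. Gene reads are those of genes recovered in both groups, so LHCB1.3, RBCS1A and RCA are not in the total. The antenna share lies at 6.25% and 6.58% in IBH1-Ox and at 2.27% and 2.19% in the double line, while the PSII share stays between 1.80% and 2.01%.

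Antenna genes with and without CCAATC near the start overlapped in their response. The 11 genes with it all fell, their median log2 fold change being -1.57 within limits of -2.85 and -0.80. Of the 9 without it 6 fell, with a median of -1.02 and a range of -2.07 to 0.06. LHCB1.1 and LHCB3 fell steeply with no CCAATC in the window, so the letters alone did not sort the genes.

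Other genes of the light reactions were counted from lists of their own. Of 8 genes for electron carriers 7 rose, up to PETE2 (plastocyanin) at 0.51, and only the other plastocyanin gene, PETE1, fell, at -0.70. PETE2, from 36117 and 37031 to 51797 and 52363 normalized counts, is the more abundant plastocyanin message. All 3 nuclear genes for chloroplast ATP synthase rose, from ATPD at 0.19 to ATPG at 0.40. Over all tested genes 12.7% rose. Of the 121 genes outside the set with a mean of 10000 or more, however, 67.8% rose, with a median of 0.33. The medians of the electron carriers (0.39) and of ATP synthase (0.35) lie near that of these abundant genes. The plastid-encoded genes gave little signal. None of 5 PSI and 15 PSII genes of the plastid was called by the authors' DESeq test, against 1 (psbI) at an unadjusted p below 0.05 and 2 (psbI and psaA) in the limma-voom fit, and the highest group mean among them was 533, for psbA in IBH1-Ox.

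Genes that serve or resemble the antenna moved both ways. Over all tested genes 9.78% fell and 12.7% rose. Of 4 genes for inserting antenna proteins into the thylakoid, CPSRP54 (-0.85), ALB3 (-0.46) and CPFTSY (-0.30) fell, and CPSRP43 was at 0.14 and not called. Of 6 genes for proteins related to the antenna, ELIP2 fell (-0.67), OHP2 rose (0.33) and 4 were not called, which is near the shares over all genes. Of 8 genes for state transitions and quenching, 2 fell and 4 rose. ZEP, which makes violaxanthin, fell by 0.57 on the log2 scale, and VDE, which turns it into zeaxanthin under excess light, rose by 0.66. STN7, the kinase that phosphorylates LHCB1 and LHCB2, was at -0.25 and fell as well.

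**Figure D5:**
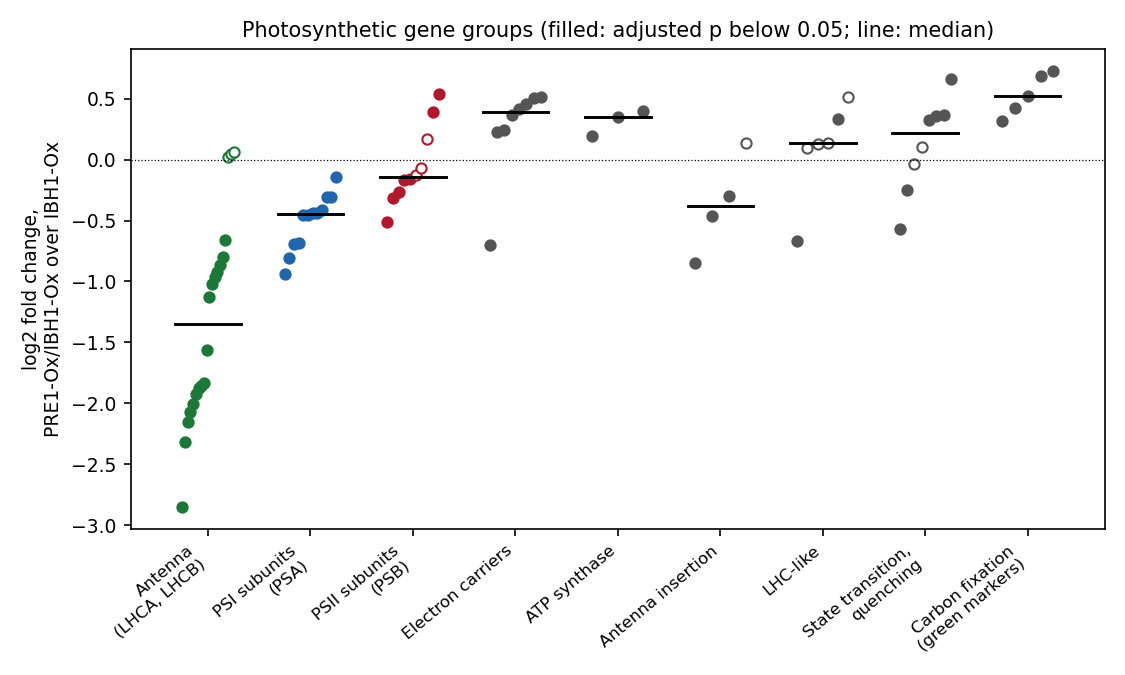
Log2 fold change of the double line over IBH1-Ox (vertical axis) for each gene of 9 groups, filled where the deposited adjusted p was below 0.05 and open otherwise, with the group median as a line. The antenna median is -1.35 and the PSI median -0.45, while electron carriers (0.39), ATP synthase (0.35) and carbon fixation markers (0.52) lie above 0.

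Markers of tissues were counted beside these results. Over all tested genes 9.78% fell and 12.7% rose, while 67.8% of the 121 genes outside the set with a mean of 10000 or more rose. All 5 green tissue markers rose, from RBCS1A at 0.32 to SBPASE at 0.73, and their summed group mean went from 499970 to 679721 normalized counts. None of 4 root markers was called by the authors' DESeq test, against 1 (PIN2, at -0.34) at an unadjusted p below 0.05 and in the limma-voom fit, with summed means of 1997 and 1940.0. Both epidermis markers fell, PDF1 by 0.73 and ATML1 by 0.32 on the log2 scale, with sums of 5299.6 and 5829.9 in the IBH1-Ox libraries and 3802 and 3673 in those of the double line. Of the guard cell markers MYB60 fell (-0.49) and FAMA was at 0.19 and not called. The phloem marker SUC2 was at 0.12 and not called, and the xylem marker XCP1 rose (0.46). The green markers, all with a mean of 10000 or more, thus went opposite to the antenna genes, as most other abundant genes did. The part of epidermis and xylem markers in the fall of the antenna genes was not tested.

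The comparison of IBH1-Ox with wild type asks which transcripts differ when IBH1 alone is overexpressed, and its deposited table lists only 1547 genes, with adjusted p-values up to 0.0492 and folds of at least 1.5. Of the 42 genes only LHCB4.3 is listed, as higher in IBH1-Ox, where 3.26% of 24451 genes are listed higher and 3.07% lower. It stood at 311 and 301 normalized counts in wild type and at 624 and 761 in IBH1-Ox on the scale of that table, a log2 difference of 1.18 with an adjusted p of 1.87e-06 in the authors' deposited table. These values rest on 392 and 267 reads in wild type and 583 and 618 in IBH1-Ox. LHCB4.3 was thus the listed antenna gene of this comparison and an uncalled one in the other. For the other 41 genes no wild-type value was used here, and absence from the list does not show that they did not differ. Whether the double line lies above or below wild type therefore cannot be read for them. Of the lists around them, FD2 (-0.59), CPSRP54 (0.60) and psbZ (-1.38) are listed, and of the tissue markers the root marker EXPA7 (0.69) and the phloem marker SUC2 (-0.90). In the authors' deposited table the adjusted p of SUC2 was 4.33e-32 and that of EXPA7 0.0397, and the part of either tissue in the listing of LHCB4.3 was not tested. FD2, a ferredoxin, and CPSRP54 each had the opposite sign in the double line against IBH1-Ox, at 0.41 and -0.85, but both comparisons share the IBH1-Ox libraries.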

How the data were processed

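Per the labels, RNA of seedlings was made into TruSeq libraries. TopHat, DESeq and the TAIR10 build are named in the submitters' processing notes, with versions, annotation, read length and strand not given in the sources used here. Per the file headers, the authors deposited group means as a signal (counts divided by size factors), their ratio as a fold, its log2, and p-values. The log2 column of the double line against IBH1-Ox holds damaged cells and was not used. No deposited column of means was left without a group (0 such columns). The main calls are the authors' (adjusted p below 0.05), and log2 fold changes without an SE are ratios of the deposited means.

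The deposited means were split into 2 whole read counts a group. The size factors were set so that no mean deviated by more than 0.5 of its last digit (10 significant digits), and means of 10000 or more were allowed at most a 2-fold difference between libraries, a limit that 13 of the 42 genes needed in IBH1-Ox. IBH1-Ox reads were equal in both tables for 1547 of 1547 genes. The SD of the log2 ratio between libraries was 0.153 (IBH1-Ox) and 0.134 (double line). The recovered libraries cannot be tied to numbered samples. Every use of recovered reads was an addition to the authors' test. Limma-voom (limma 3.58.1, R 4.3.3) used the authors' size factors and genes with a mean of 10 or more, was tested on simulated data, and its SE leaves out the uncertainty of the split.

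The members and lists were chosen with earlier results of these data known. Values were given for all members, in full for the 3 lowest and 3 highest fold changes of each class, for near-identical copies and for genes listed against wild type. Other lists were given by counts and extremes, and further genes named in them were chosen after their values were seen. The motifs and copies were read from RefSeq TAIR10.1, and the files give no coordinates. The alternatives tried were other thresholds, fold limits, scalings, filters, denominators and leaving out each library.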

Additional observations from a re-analysis of the deposited data

How the results depend on the processing

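The antenna and PSI falls kept their direction under every threshold, scaling and left-out library tried, and the small PSII changes did not all keep their call. A fold of at least 1.5 left 4 PSI genes lower, 0 PSII genes lower and 0 higher, and a fold of at least 2 left 0, 0 and 0. An adjusted p below 0.01 left 3 PSII genes lower. With only means that split with no limit on the ratio between libraries, an alternative chosen after seeing the data, limma-voom called 6 antenna genes lower, since fewer antenna genes were then in the fit. Leaving out each library gave 3 to 7 PSII genes lower, the 3 without either library of the double line, and 0 to 1 antenna genes higher. The limma-voom calls of PSAD1, PSBO2, PSBP1 and PSBX were lost without either library of the double line. In those fits the spread comes from the IBH1-Ox libraries alone, and the SE of PSAD1 went from 0.036 to 0.079 and 0.077. The call of PSBY was lost without the double-line library of larger size factor, without the IBH1-Ox library of larger size factor, or with total reads as library sizes. PSBR was called with total reads as library sizes (-0.11, limma-voom adjusted p = 0.0238). LHCA6 turned to -0.013 with total reads as library sizes, and leaving out each library gave -0.024 to 0.082 for it, with the negative values without the IBH1-Ox or the double-line library of larger size factor. Leaving out each library gave -0.068 to 0.217 for LHCB4.3, negative without the IBH1-Ox library of larger size factor. The cause was not tested. Rescaled to equal gene totals the medians were -1.39, -0.49 and -0.18 for antenna, PSI and PSII, centring gave -0.13 for PSII, and with 3 LHCB1 copies summed the antenna median was -1.24. Over all entries of the table the shares were 6.14% and 2.35% (antenna), 1.58% and 1.11% (PSI) and 1.63% and 1.52% (PSII). Over all genes limma-voom called 4161 higher and 3475 lower, against 3104 and 2392 in the authors' deposited table, and 3550 and 4122 with total reads as library sizes. No paired analysis was possible because the deposited columns are group means and the recovered libraries carry no replicate number. With 2 libraries a group the spread is poorly known, and wild-type values of 41 genes were not analysed here.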
